A study of Homo sapiens with 6 samples.

Results

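Desmosomes are spot-like junctions that rivet epithelial cells together and tie their keratin filaments to the plasma membrane. Desmosomal cadherins (desmogleins and desmocollins) bind across the gap between cells, the armadillo proteins plakoglobin and plakophilin hold their tails, and the plakins desmoplakin and periplakin link this plaque to keratin. Stratified epithelia such as skin and the lower layers of urothelium carry forms (DSG3, DSC3, PKP1) that simple epithelia largely lack, whereas DSG2, DSC2 and PKP2 are found in both. The 10 genes described here were DSG2, DSG3, DSC2, DSC3, DSP, JUP, PKP1, PKP2, PKP3 and PPL. They were chosen by name, with earlier results of the same libraries known, so counts over them are descriptions. All 10 were among the 13271 genes of the deposited table.

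The data came from 5637, an established human bladder cancer cell line. Control cells received an empty vector and MAT1A cells a plasmid for overexpression of MAT1A, the liver-type enzyme that makes the methyl donor S-adenosylmethionine. Both groups were transfected with Lipofectamine 3000 at 50% confluency, and RNA was taken 48 h later, in 3 libraries per group. Transfection is transient, and the labels give neither the share of cells that took up plasmid nor whether each library came from its own culture. The p-values therefore reflect the spread among these 6 libraries, part or all of which may be technical.

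MAT1A stood at 1.09, 0.253 and 4.54 in control libraries 1, 2 and 3 and at 1805, 1834 and 1917 in MAT1A libraries 1, 2 and 3, on the deposited CPM-like scale of reads relative to a scaled library size. The libraries held 17.4 to 21.6 M reads in listed genes, and the 10 desmosome genes together took 36281 to 46673 of them. DSG3, which had the fewest reads of the 10, still had 565 to 652 per library. A level of 3 reads (0.140 to 0.172 on the deposited scale) thus lay far below every value of the 10 genes. The 0.253 of MAT1A in control 2 came from only 5 reads. Epithelial identity was checked on 7 markers, all listed, with EPCAM at 330 to 353 over all libraries. KRT8 was at 1969 to 2017 in control and 2063 to 2276 in MAT1A. By the test given below, 3 of the 7 were called higher and 0 lower. All 7 had a log2 change, MAT1A minus control, above 0, with a median of 0.096. Of 6 urothelial markers 4 were listed, with the terminal differentiation genes UPK1A and UPK3A not listed and UPK2 at 0.61 to 1.08. UPK1B stood at 7.24 to 9.70 and PPARG at 96.4 to 110 over all libraries. GATA3 fell from 46.6 ± 0.53 in control to 38.4 ± 1.20 in MAT1A (SD, n = 3). Its log2 change was -0.28 (limma adjusted p = 0.00061), and 0 of the 3 tested urothelial markers were called higher.

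Desmosome transcripts were slightly more abundant in the MAT1A libraries, and no change was as large as 1.5-fold. PPL, DSC3, PKP1 and JUP rose, by 8.04 to 13.5% of the control mean, and 0 of the 10 fell (5 higher and 0 lower at an unadjusted p under 0.05). The remaining 6 did not pass the test, which was limma on log2(value + 1) with Benjamini-Hochberg adjustment over all genes and a threshold of 0.05. By the same test 4.01% of the 12866 genes tested were called higher, 7.4% were called lower and 11.4% were called in all. The log2 change, MAT1A minus control, was above 0 for 9 of the 10 desmosome genes and for 51.5% of all genes tested. Its median was 0.080 over the desmosome genes and 0.0040 over all genes tested.

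The 3 control and 3 MAT1A values did not overlap for 6 of the 10 genes (PPL, DSC3, PKP1, JUP, DSG2 and PKP2), each time with MAT1A higher; over all genes tested, 14.7% were separated in that direction and 30.3% in either. Summed over the 10 genes, the deposited values were 2082, 2062 and 2040.1 in control libraries 1, 2 and 3 and 2202, 2179 and 2176 in the MAT1A libraries, a mean higher by 6.04%. In bulk RNA, more cells that express a gene and more of its RNA per cell cannot be told apart.

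**Figure D1:**
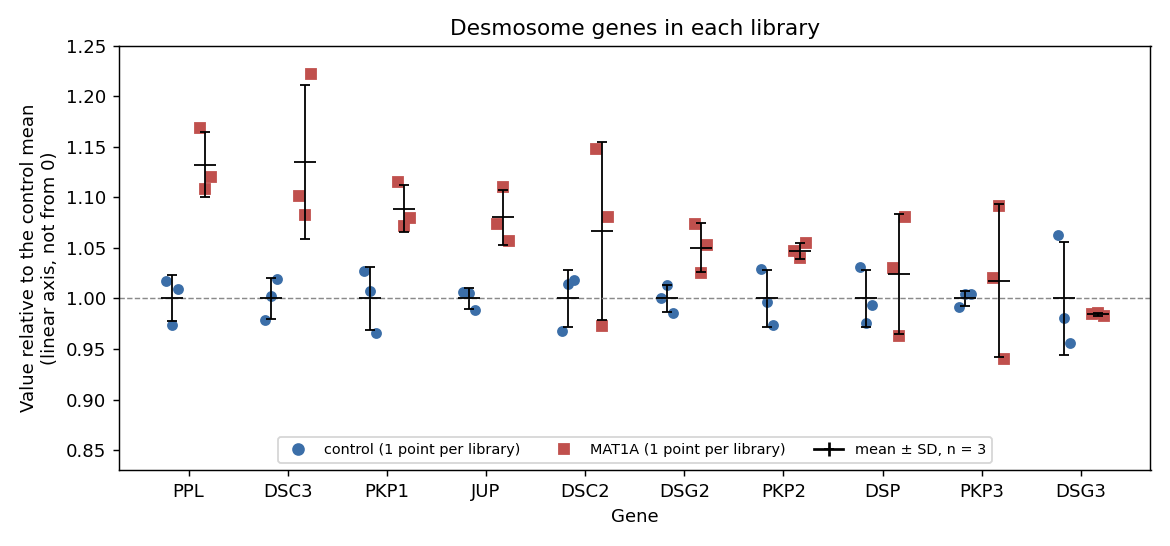
Value of each desmosome gene divided by its own control mean (y axis, linear and not starting at 0), with 1 point per library (circles for control, squares for MAT1A) and bars for mean ± SD over 3 libraries; genes are ordered by log2 change. PPL, DSC3, PKP1, JUP, DSG2 and PKP2 show no overlap between groups, and DSG3 is the gene whose MAT1A mean lies below the control mean.

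The promoters of the desmosomal genes differed in base composition, and the stretches below show the contrast between the neighbouring genes DSG2 and DSG3, the plakin gene DSP, and DSC3 and PKP1, both of which rose. RefSeq start-site windows on GRCh38.p14 matched 7 of the 10 genes, in 9 windows; PKP2, PKP3 and PPL had no entry. Each stretch covers 100 bases, 250 to 151 before the start site, read 5′ to 3′ on the gene's strand. No GENCODE 29 exon touches them, whereas the JUP stretches overlap an exon and are not shown. Capitals mark the GC box GGGCGG on either strand.
DSG2, chr18:31497927-31498026, plus strand: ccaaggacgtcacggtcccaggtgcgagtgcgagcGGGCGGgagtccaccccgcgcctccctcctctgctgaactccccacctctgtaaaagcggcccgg
DSG3, chr18:31447491-31447590, plus strand: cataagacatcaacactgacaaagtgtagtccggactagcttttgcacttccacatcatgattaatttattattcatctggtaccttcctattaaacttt
DSC3, chr18:31042893-31042992, minus strand: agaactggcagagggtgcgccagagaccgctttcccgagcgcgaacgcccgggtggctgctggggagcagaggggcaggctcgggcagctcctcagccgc
PKP1, chr1:201283256-201283355, plus strand: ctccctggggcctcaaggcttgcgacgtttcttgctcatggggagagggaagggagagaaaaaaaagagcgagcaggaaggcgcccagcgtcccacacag
DSP, chr6:7541421-7541520, plus strand: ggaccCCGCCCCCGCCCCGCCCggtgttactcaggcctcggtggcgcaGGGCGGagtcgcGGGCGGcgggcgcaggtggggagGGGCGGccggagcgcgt

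The DSG3 stretch was 35% G and C with 1 CG dinucleotide, against 70.0% and 10 for DSG2. DSC3 had 72.0% and 9, PKP1 60.0% and 5, and DSP 83% and 16. The DSC2 stretches, which are not shown, differed from each other, with 46.0% and 0 in one and 71.0% and 9 in the other. Over the full windows of 250 bases before and 50 after the start, the GC box occurred in 6 of 9 windows, those of DSC2, DSG2, DSP, JUP and PKP1, and in 45.0% of all 35116 promoters of the table. Searched on both strands, the AP-1 motif TGANTCA, the grainyhead-like motif AACCNGTT, the E-box CACGTG, the TEAD motif GGAATG and the TATA box TATAAA occurred in 0 of the 9 windows. They occurred in 7.71%, 1.73%, 7.26%, 14.0% and 11.5% of all promoters, respectively. Genes that rose and genes that did not pass were both found with and without a GC box.

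Levels were compared between genes per kb of annotated exon, except in the within-library ratios given further below. Plakoglobin (JUP) was the most abundant in control, at 139.8 ± 1.40 per kb (SD, n = 3), followed by DSG2 (66.0 ± 0.90), PKP3 (52.7 ± 0.39), DSP (32.8 ± 0.92) and PKP1 (24.3 ± 0.77). PPL (12.1 ± 0.28), PKP2 (10.8 ± 0.30), DSG3 (5.60 ± 0.31), DSC3 (5.58 ± 0.11) and DSC2 (3.36 ± 0.095) followed. Among all listed genes, JUP stood at the 98.3rd percentile of this level and DSC2 at the 38.7th. Every neighbouring pair in this order had separate control values except DSG3 and DSC3; in the MAT1A libraries DSC3, at 6.33 ± 0.42 per kb, lay above DSG3, at 5.51 ± 0.0075, in all 3. Per kb of the longest transcript instead of all exons, PKP3 ranked above DSG2, PKP2 above PPL and DSC3 above DSG3.

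**Figure D2:**
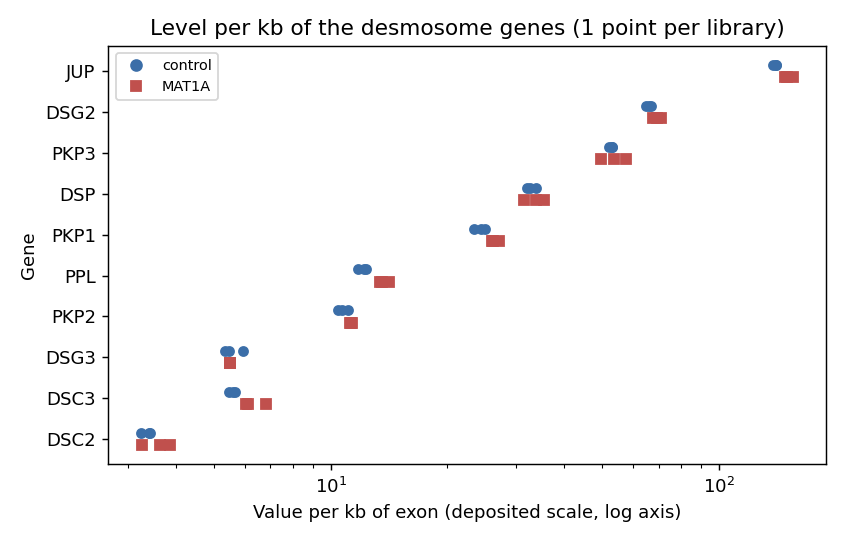
Deposited value per kb of annotated exon (x axis, log scale) for each desmosome gene, with 1 point per library (circles for control, squares for MAT1A). JUP lies highest, at 139.8 per kb in control, and DSC2 lowest, at 3.36, and the spread between genes is far wider than the difference between groups.

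The desmosomal cadherin genes form a cluster on chromosome 18 (GRCh38), with DSC3 at 30990008 to 31042815 and DSC2 at 31058840 to 31102522 on the minus strand, and DSG3 at 31447795 to 31478702 and DSG2 at 31498043 to 31549008 on the plus strand. DSC1, DSG1 and DSG4, the members of the cluster that lie between DSC2 and DSG3, were not among the listed genes. By exon, the only annotated overlap of any of the 10 genes was between DSG2 and the antisense transcript DSG2-AS1, which share 171 bases and of which the latter was not listed.

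Of the 4 cadherin genes listed, only DSC3 was called higher. DSC3, the desmocollin typical of the basal layers of stratified epithelium, was 38.5, 39.5 and 40.1 in control libraries 1, 2 and 3, against 43.3, 42.6 and 48.1 in MAT1A 1, 2 and 3. All 3 MAT1A values were above all control values, and MAT1A 3 was the highest. Its log2 change was 0.18 ± 0.05 (SE; limma adjusted p = 0.0344). The call was lost without any single library other than MAT1A 2 (adjusted p up to 0.128) and with MAT1A left out of the library size (0.0527). DSC2, the widely expressed desmocollin, was 40.6, 42.6 and 42.7 in the control libraries, against 48.1, 40.8 and 45.3 in the MAT1A libraries, so that MAT1A 2 fell among the controls. Its log2 change was 0.09, with a 95% interval from -0.029 to 0.21 (limma adjusted p = 0.333). After correction of each library for exon length and GC content it was 0.15 and passed (limma adjusted p = 0.0330), though not once library medians were restored (0.0713).

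DSG2, the desmoglein of simple and stratified epithelia, was 409, 414 and 403 in control libraries 1, 2 and 3, against 438, 419 and 429.7 in MAT1A 1, 2 and 3. The groups did not overlap, but control 2 and MAT1A 2 lay close together. The log2 change of 0.07 (95% interval 0.0081 to 0.13) did not pass (limma adjusted p = 0.138). It passed without MAT1A 2 (limma adjusted p = 0.0456) and after the length and GC correction (0.00617). Once library medians were restored after that correction, the log2 change was 0.085 and still passed (limma adjusted p = 0.0225). DSG3, the desmoglein that is the main autoantigen of pemphigus vulgaris, was 32.9, 30.3 and 29.6 in the control libraries, against 30.5, 30.5 and 30.4 in the MAT1A libraries. The MAT1A values sat inside the control range, with a log2 change of -0.02 and a 95% interval from -0.13 to 0.092 (limma adjusted p = 0.847).

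Among the armadillo proteins of the plaque, JUP and PKP1 rose. JUP encodes plakoglobin, which binds the cadherin tails in desmosomes and also in adherens junctions; the gene lies on chromosome 17 at 41754604 to 41786931. It was 695, 694 and 683 in control libraries 1, 2 and 3, against 742, 767 and 730.2 in MAT1A 1, 2 and 3, from 12111 to 15663 reads. Every MAT1A value was above every control value, and the difference of the means, 690.7 ± 6.91 against 746 ± 18.8 (SD, n = 3), was larger than either SD. The log2 change was 0.11 ± 0.03 (SE; limma adjusted p = 0.0205). Leaving out MAT1A 1 or any control library ended the call, with adjusted p-values up to 0.122.

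PKP1 encodes the plakophilin of suprabasal stratified layers and lies on chromosome 1 at 201283452 to 201332993. It was 155, 152 and 146 in control libraries 1, 2 and 3, against 168, 162 and 163 in MAT1A 1, 2 and 3. The groups did not overlap, and the log2 change was 0.12 ± 0.03 (SE; limma adjusted p = 0.0286). Leaving out MAT1A 1, control 2 or control 3 ended the call, with adjusted p-values up to 0.174.

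PKP2, a plakophilin of simple epithelia and of heart muscle on chromosome 12 (32790745 to 32896840), was 78.0, 75.5 and 73.8 in the control libraries, against 79.3, 78.8 and 80.0 in the MAT1A libraries. Its groups did not overlap, yet control 1 was within 1 unit of MAT1A 2, and the log2 change of 0.07 (95% interval -0.013 to 0.15) did not pass (limma adjusted p = 0.280). PKP3, the plakophilin found in most epithelia, on chromosome 11 (392614 to 404908), was 198, 201 and 201 in the control libraries, against 204, 218 and 188 in the MAT1A libraries. Here the MAT1A libraries lay on both sides of the narrow control range, and the log2 change was 0.02 (95% interval -0.068 to 0.11; limma adjusted p = 0.786).

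Of the plakin genes, PPL rose and DSP did not pass the test. PPL encodes periplakin, which binds keratin and vimentin filaments and also forms part of the cornified envelope; it lies on chromosome 16 at 4882507 to 4960741. It was 94.6, 90.6 and 93.9 in control libraries 1, 2 and 3, against 109, 103 and 104 in MAT1A 1, 2 and 3. All MAT1A values exceeded all control values, with means of 93.0 ± 2.12 and 105 ± 2.98 (SD, n = 3). The log2 change was 0.18 ± 0.04 (SE; limma adjusted p = 0.00430), and PPL was called in each of the 17 refits that changed the scaling, filter, pseudocount, covariates or libraries (adjusted p up to 0.0420).

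DSP encodes desmoplakin, the obligate link between the plaque and keratin filaments, and lies on chromosome 6 at 7541575 to 7586717. It was 341, 323 and 329 in control libraries 1, 2 and 3, against 341, 318 and 357 in MAT1A 1, 2 and 3. The groups overlapped throughout, with MAT1A 2 the lowest of the 6 libraries and MAT1A 3 the highest. The log2 change was 0.03 (95% interval -0.048 to 0.11; limma adjusted p = 0.629).

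**Figure D3:**
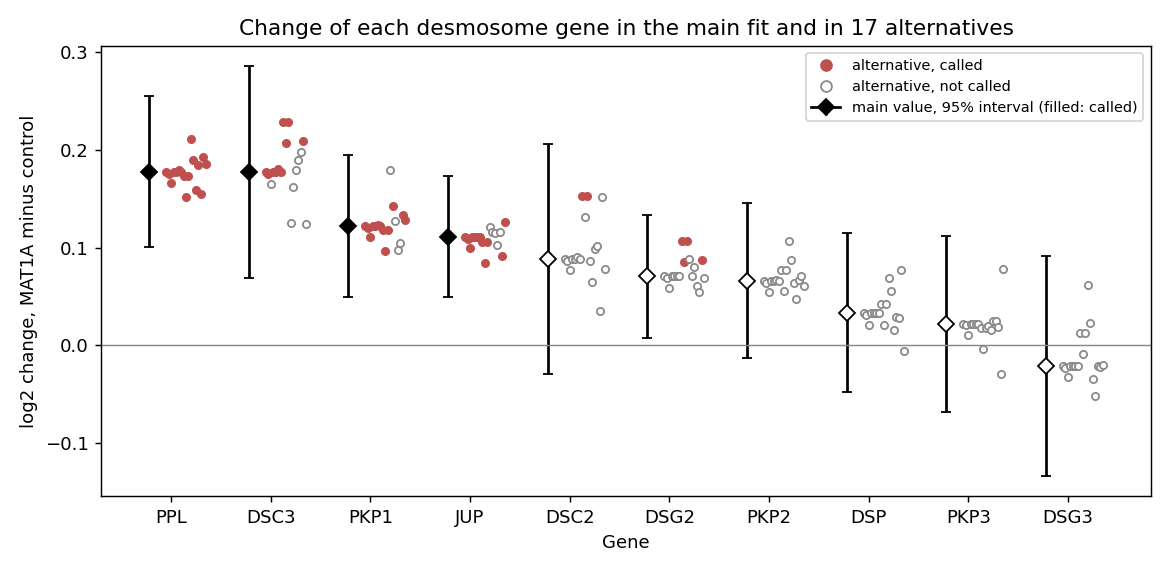
Log2 change of each desmosome gene, MAT1A minus control (y axis), with the main value and its 95% interval as a diamond (filled where called) and 17 alternative fits as circles (red where called, open where not). PPL is called in all 17, PKP1 in 13, JUP in 12 and DSC3 in 10, while PKP2, DSP, PKP3 and DSG3 are called in none.

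Pairs of related genes were compared within each library, as the log2 ratio of the form typical of stratified epithelium to the more widespread form. The ratios used the deposited values without division by exon length, so their sign does not order the genes by level. Only their difference between groups was read. The ratio of DSG3 to DSG2 was -3.72 ± 0.077 in control and -3.82 ± 0.034 in MAT1A (SD, n = 3; exact two-sided permutation p = 0.10). That of DSC3 to DSC2 was -0.092 ± 0.017 and -0.00094 ± 0.13 (exact two-sided permutation p = 0.40). For PKP1 to PKP2 it was 0.99 ± 0.014 and 1.05 ± 0.032 (exact two-sided permutation p = 0.10). Adjusted over the 3 ratios the p-values were 0.15, 0.40 and 0.15, and 3 against 3 libraries cannot go below 0.10. The desmoglein ratio moved towards DSG2 and the plakophilin ratio towards PKP1, and neither difference passed the threshold.

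Per kb of exon, DSG2 made up 92.2 ± 0.39% of desmoglein transcript in control and 92.6 ± 0.16% in MAT1A (SD, n = 3). Of desmocollin transcript, DSC3 made up 62.4 ± 0.27% and 63.9 ± 2.11%. Among the plakophilins PKP3 led, with 60.1 ± 0.88% and 58.7 ± 1.94%, ahead of PKP1 (27.7 ± 0.64% and 29 ± 1.37%) and PKP2 (12.3 ± 0.25% and 12.3 ± 0.62%).

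Genes that work with desmosomes were read from the same fit. Of 9 other desmosomal genes, 5 were listed and 0 were called, with 1 higher and 0 lower when the replicate number was added as a block; at an unadjusted p under 0.05 limma gave 2 higher and 0 lower. The most abundant, PERP, which encodes a membrane protein of desmosomes and a p53 target, stood at 634 ± 11 in control and 666 ± 5.37 in MAT1A (SD, n = 3; log2 change 0.07, limma adjusted p = 0.121). PNN, at 306 ± 4.54 and 310.4 ± 5.52, had a log2 change of 0.02. The list's median log2 change was 0.021. Of 18 tested regulators of desmosomes (proteases, kinases, palmitoylation enzymes, calcium pumps and transcription factors), 1 rose and 0 fell, with a median of 0.010 (1 and 1 with the replicate block). The riser was GRHL3, a grainyhead-like transcription factor gene of stratifying epithelium, which went from 16.3 ± 0.31 to 23.9 ± 0.82 (log2 change 0.53, limma adjusted p = 1.3e-05).

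In the keratin partner list, 10 of 16 tested genes rose and 1 fell, with a median log2 change of 0.17. The basal keratin gene KRT5 rose from 1539 ± 55.3 to 1918 ± 99.6 and KRT17, a keratin gene of activated and basal cells, from 585 ± 30.1 to 795 ± 35.1 (SD, n = 3; log2 changes 0.32 and 0.44). KRT4, a keratin gene of mucosal epithelium, rose from a low 0.70 ± 0.41 to 2.61 ± 0.089, which is 3.71 times the control mean. It had only 15, 20 and 5 reads in control libraries 1, 2 and 3. Its log2 change of 1.11 understates the ratio of 3.71 because 1 was added to such low values. VIM, which encodes the intermediate filament protein of mesenchymal cells, fell from 284 ± 2.52 to 218 ± 3.07 (-0.38). Keratin genes have similar copies, so their reads are uncertain. Without control 3 the keratin list gave 6 higher and 1 lower, and with the replicate block 11 and 1.

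In the adherens junction list, 5 of 12 tested genes rose and 1 fell, with a median of 0.079. CDH1, the gene of E-cadherin, rose from 194 ± 0.89 to 216 ± 5.69 (SD, n = 3; log2 change 0.15), PLEKHA7 by a log2 change of 0.20 and NECTIN4 by 0.70. CDH2, the gene of N-cadherin, fell from 99.4 ± 5.10 to 88.0 ± 7.39 (-0.18). The list gave 3 higher and 0 lower without control 1, 3 and 1 without control 2 or MAT1A 1, and 2 and 0 without control 3. With MAT1A left out of the library size it gave 3 and 1, and with the replicate block 6 and 1. These lists were chosen with earlier results of the same libraries known, so their counts are descriptions.

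**Figure D4:**
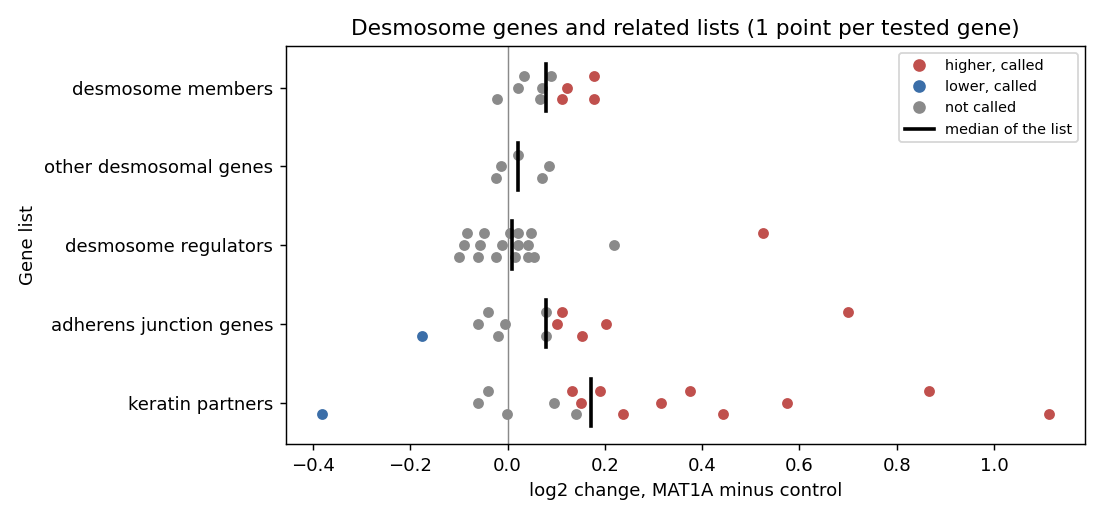
Log2 change, MAT1A minus control (x axis), of every tested gene of the desmosome list and of 4 related lists (rows), with red points called higher, blue points called lower, grey points not called and a black bar at the list's median. The desmosome genes lie between -0.02 and 0.18, with a median of 0.080, and the keratin partners reach furthest to the right, with a median of 0.17.

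Skeletal muscle transcripts differed between the libraries and moved with the groups. Of 15 muscle markers, 14 were listed, 11 were called lower and 0 higher. Their summed value was 482, 152 and 95.6 in control libraries 1, 2 and 3, against 95.2, 48.1 and 46.0 in MAT1A 1, 2 and 3, so control 1 stood apart. Heart muscle, whose cells join through DSG2, DSC2, DSP, JUP and PKP2, had 3 of 7 markers listed, with a sum of 2.94 to 9.58 in control and 3.31 to 5.23 in MAT1A. Of 8 fibroblast markers 4 were listed, with a sum of 203 to 319 in control and 176 to 187 in MAT1A and 1 called lower, COL1A1. Endothelial, immune and melanocyte markers had 1 listed gene each, with none above 3.10.

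Without control 1 the log2 changes of PPL, DSC3, PKP1 and JUP were 0.19, 0.16, 0.14 and 0.12, and 2 of the 10 desmosome genes were called, PPL and PKP1. With each library's mean log2 level of the muscle markers as a covariate, the changes were 0.21, 0.13, 0.18 and 0.12, and PPL alone was called (limma adjusted p = 0.0420; PKP1 0.0523, JUP 0.200, DSC3 0.464). In that fit the keratin list gave 6 higher and 1 lower, and the adherens junction list 0 and 0. At an unadjusted p under 0.05 limma gave 6 higher and 1 lower in the adherens junction list. The share of all genes at that threshold was not taken for that fit. The share of the fibroblast signal in these differences was not tested.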

How the data were processed

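RNA of 6 libraries of 5637 cells was measured, 3 control and 3 MAT1A, grouped by their titles. Per the labels' protocols, libraries came from TruSeq RNA version 2, a kit that does not mark strand. The deposited values are a signal, reads per gene relative to a scaled library size; per the submitters' processing notes, STAR 2.6.0c, featureCounts and edgeR were used with hg38, and their settings were not given in the sources used here. In each column 100% of values were whole multiples of 1 step (tolerance 0.001 reads), which gave the depth in reads. Intervals and floors cover counting error or library spread only, since reads carry no molecular identifiers.

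The test was limma 3.58.1 in R 4.3.3, with an intensity trend, on log2(value + 1) of the 12866 genes that reached a value of 1 in 3 or more libraries; all 10 desmosome genes passed this filter in every library. Adding 1 makes such log2 changes understate those of low genes. The procedure was tested on simulated data with planted changes far larger than those of the desmosome genes. Calls of changes as small as theirs were not tested in this way. Of all genes tested, 1468 were called, 516 higher and 952 lower. With the replicate number as a block 2310 were called. After correction for length and GC 2210 were called, of which 1282 were higher (58.0% against 35.1%). With library medians restored after that correction, 1877 were called, 757 of them higher. After removing group means, libraries with the same number correlated at 0.25, 0.18 and 0.19 across genes, each over 0.1. Libraries with different numbers correlated at -0.17 to -0.025. Whether the numbers mark a true pairing was not tested, and the main fit did not use them. No libraries were duplicates, since chi-square per degree of freedom was at least 1.86.

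Exon lengths, positions and overlaps are from GENCODE 29 on GRCh38; 13211 symbols matched. The desmosome genes and the other lists were chosen with earlier results of these data known. MAT1A is named besides the 10 genes. In the other desmosomal, regulator, keratin and adherens junction lists, up to 3 called genes per direction with the smallest p were named. Where none was called, the 2 most abundant were named. Cell type markers and the neighbours in the cadherin cluster were named without this rule. Alternatives were other scalings, filters and a pseudocount of 0.1, stricter thresholds, the replicate block, length and GC correction, a muscle covariate, and leaving out each library. Count-based tests on recovered reads were planned but not run.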

Additional observations from a re-analysis of the deposited data

How the results depend on the processing

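PPL was called in all 17 refits and missed only the demand for a 1.5-fold change, which 0 of the 10 desmosome genes, 3 of the 51 other listed genes and 193 of all genes met (main counts 4, 18 and 1468). At an adjusted p under 0.01 the counts were 1, 10 and 663, and with the muscle covariate 1, 8 and 430. Leaving out single libraries gave 1 to 5 desmosome genes, 10 to 21 other listed genes and 749 to 1656 of all genes; the fewest of all genes came without control 3 (749) and control 1 (782). The replicate block gave 2310 genes, the length and GC correction 2210, and both together 2821, with 4, 6 and 6 desmosome genes. The length and GC correction with library medians restored gave 1877 genes and 5 desmosome genes. The block changed no call among the 10. Desmosome calls ranged from 3 to 4 over the 3 scalings and were 4 with either filter and with the other pseudocount.

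Directions turned only for genes that did not pass. DSG3 was at 0.013 with the length and GC correction, with or without the block, at 0.062 with the muscle covariate, and between -0.051 and 0.023 with single libraries left out. PKP3 was at -0.0037 with medians set back and between -0.030 and 0.078 with single libraries left out, and DSP between -0.0057 and 0.077. The cause was not tested. The log2 ratio differences kept their signs without single libraries, at -0.12 to -0.048 for DSG3 to DSG2, 0.047 to 0.17 for DSC3 to DSC2 and 0.038 to 0.068 for PKP1 to PKP2. Pairing by replicate number cannot change these mean differences (-0.092, 0.091 and 0.056), since each number occurs once per group. The exact two-sided p-values from flipping the signs of the paired differences were 0.25, 0.50 and 0.25. The planned edgeR, DESeq2 and limma-voom fits were not run. For DSG2, DSC2, DSG3, PKP2, PKP3 and DSP, the 95% intervals give the range of differences that 3 libraries per group leave possible.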
